A study of Mus musculus with 2 samples.

Results

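C1q macrophages of the skin are the macrophages that carry mRNA of the complement component C1q, and 315 of them were found among 62289 kept barcodes of mouse dorsal skin. They were chosen by measured values. A barcode was kept when it had 200 to 8000 genes with a unique molecular identifier (UMI, the tag that marks 1 captured mRNA molecule) and at most 10% of its UMIs in mitochondrial genes. It was counted as a C1q macrophage when C1qa, C1qb and C1qc together reached 10 per 10000 UMIs, when at least 3 of the 7 genes C1qa, C1qb, C1qc, Mrc1, F13a1, Pf4 and Folr2 had a UMI, and when Cd3e, Cd3g and Trdc of T cells had none. In the control library (Con) 47 of 42244 kept barcodes met the rule, and in the library of mice given testosterone propionate (TP) 268 of 20045 did.

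C1q is the recognition part of the classical complement pathway and is assembled from 3 chains, 1 from each of the genes C1qa, C1qb and C1qc. In tissues its main source is the resident macrophage, which uses it to tag dying cells and immune complexes for uptake. In the dermis such cells lie along vessels and around hair follicles, take up debris and iron, and are recognised by the mannose receptor Mrc1, the folate receptor Folr2, the coagulation factor F13a1 and the chemokine Pf4. Skin macrophages are known to send signals to the follicle during its growth cycle.

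The study modelled androgenetic alopecia in male C3H/HeN mice whose dorsal hair had been shaved at 7 weeks of age. Con mice received vehicle, and TP mice received 0.5 mg of testosterone propionate a day under the skin, an androgen ester that delays regrowth. Dorsal skin was taken at 9 weeks, and the cells of 15 mice were pooled into 1 library per group, after digestion with collagenase D, lysis of red cells and a Percoll gradient. A further treatment, TP with an antibody, was not analysed here. Each group was thus 1 pool in 1 library. No replicate stands behind any difference between Con and TP, and none was tested. Intervals below are exact 95% intervals of counting error only. The treatment and the handling of each pool cannot be told apart.

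The kept barcodes held 126023483 UMIs in Con, with a median of 2162 per barcode, and 156376139 in TP, with a median of 5166. The members themselves were also deeper in TP. They held 132262 UMIs in Con, from 580 to 11789 per cell with a median of 2612, and 1431428 in TP, from 644 to 24192 with a median of 4978. The 2 libraries shared 303 barcode sequences, among them 1 Con member and 6 TP members, and no barcode was a member in both.

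The whole set of marker genes was found in most TP members and in fewer of the shallower Con members. All 7 rule genes had a UMI in 17 of 47 Con members and in 206 of 268 TP members, and the median C1q level was 36.04 per 10000 UMIs in Con and 94.48 in TP. These values chose the cells and are a description. Near the limit of 10 per 10000, 5 Con members lay between 10.49 and 11.43 and 11 TP members between 10.02 and 11.67. Just outside it, 6 Con barcodes at 8.361 to 9.921 and 15 TP barcodes at 8.063 to 9.965 were left out. With 3 rule genes, the fewest allowed, there were 3 Con and 6 TP members, while 2 Con and 6 TP barcodes had 2 of the genes, and 1 TP barcode was left out for a T cell UMI.

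Macrophage genes that the rule did not use were present in both libraries. Csf1r, the receptor for the growth factor that keeps macrophages alive, had a UMI in 35 of 47 Con and 242 of 268 TP members, and its level was 665 UMIs per 1000000 (CPM) in Con and 702 in TP against 0.906 and 3.32 CPM in all other kept barcodes. Lyz2, the lysozyme of phagocytes, stood at 3659 and 4466 CPM against 3.61 and 19.4 CPM in other barcodes. Zeb2, a transcription factor of macrophages, was found in 45 Con and 261 TP members. No UMI of Cd3d, Trac, Cd207, Flt3, Xcr1, Clec9a, Cd79a or Jchain, which define T cells, Langerhans cells, dendritic cells and B cells, was found in any member; these genes were singled out after their values were seen. Over the whole lists, T cell markers had 2 UMIs in Con and 40 in TP members, dendritic and Langerhans cell markers 19 and 483, and B cell and plasma cell markers 30 and 337, of which 30 and 332 were Ighm. The macrophage markers went with the label.

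C1qa, C1qb and C1qc lie side by side on the minus strand of chromosome 4 (GRCm38, chr4:136895916-136898844, chr4:136880126-136886200 and chr4:136889801-136892936). The 250 bases upstream of the RefSeq starts of C1qb and C1qc are shown because the cells are recognised by these genes. The windows are at chr4:136886201-136886450 and chr4:136892915-136893164, both minus strand, and are the C57BL/6J reference, not the sequence of the C3H/HeN mice. Capitals mark the motif GAGGAA on either strand, the core bound by the myeloid factor PU.1, which 23.3% of all 32851 windows of this length hold.
C1qb: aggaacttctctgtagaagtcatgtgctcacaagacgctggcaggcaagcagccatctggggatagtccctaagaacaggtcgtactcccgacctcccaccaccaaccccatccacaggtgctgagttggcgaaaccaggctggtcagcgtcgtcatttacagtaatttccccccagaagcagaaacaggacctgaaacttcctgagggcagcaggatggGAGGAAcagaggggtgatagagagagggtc
C1qc: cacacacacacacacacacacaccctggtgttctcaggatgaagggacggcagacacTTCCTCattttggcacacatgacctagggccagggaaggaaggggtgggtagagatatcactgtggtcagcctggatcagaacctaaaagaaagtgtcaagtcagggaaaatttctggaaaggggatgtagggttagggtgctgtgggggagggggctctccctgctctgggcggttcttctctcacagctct
The match lies 30 to 25 bases before the start of C1qb and 193 to 188 before that of C1qc.

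C1q macrophages were a larger share of the barcodes in the TP library. They made up 0.111% of kept barcodes in Con (0.0818 to 0.148) and 1.34% in TP (1.18 to 1.51), which is 12.02-fold (8.79 to 16.8). Other immune classes of the same 2 libraries moved less or not in this direction. Barcodes rich in MHC class II mRNA that were not members, called MHC II barcodes, numbered 67 in Con and 124 in TP, a ratio of shares of 3.90 (2.88 to 5.33). T cell barcodes numbered 187 and 74, a ratio of 0.834 (0.628 to 1.10). Keratin-rich barcodes without leukocyte genes, called keratin barcodes, numbered 15550 and 11377, a ratio of shares of 1.54 (1.505 to 1.58). The differences between the classes were not tested.

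**Figure D1:**
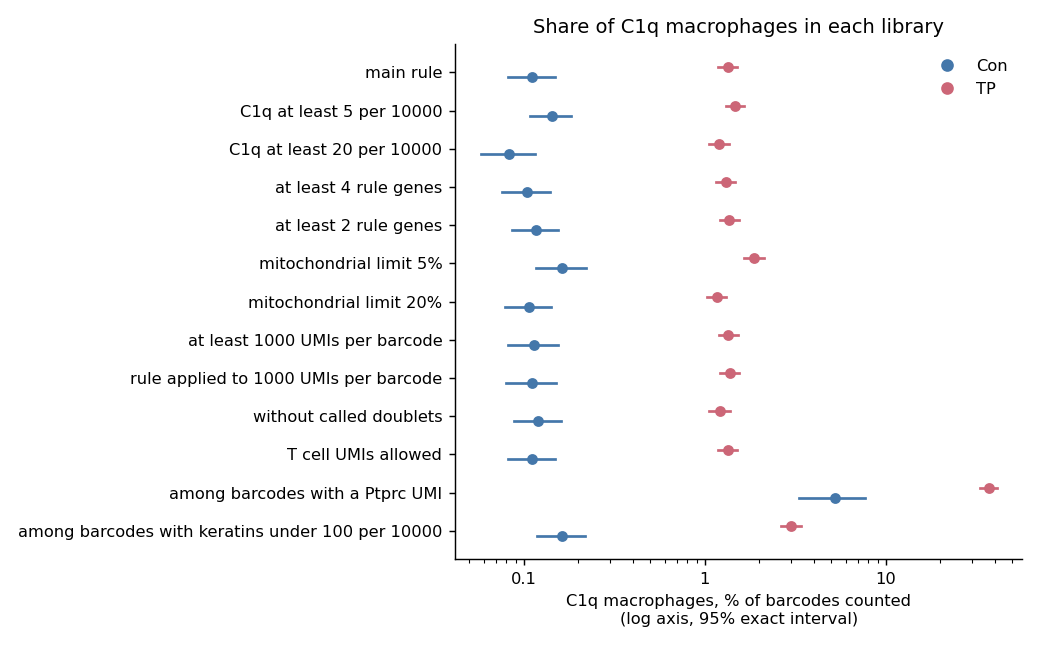
Share of C1q macrophages among the barcodes counted (percent, log axis) in the Con and TP libraries under the rule as given and 12 alternatives, 1 per line; points are the 1 library of each group and bars are exact 95% intervals of counting error. On every line the TP share lies above the Con share, with 0.111% and 1.34% under the rule as given and 5.204% and 36.9% among barcodes with a Ptprc UMI.

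The size of the ratio depended on what the members were counted against. It stayed between 10.0 and 14.4 in 10 other settings of the rule, the filters and the depth, including 12.4 with every barcode thinned to 1000 UMIs, where 41 of 36882 Con and 263 of 19154 TP barcodes were members. Against barcodes with a UMI of the leukocyte gene Ptprc it was 7.10 (4.61 to 11.4), from 23 of 442 in Con, 5.204%, to 222 of 601 in TP, 36.9%. Against barcodes with keratins under 100 per 10000 UMIs it was 18.5 (13.4 to 26.2). The plot of shares shows the 2 libraries apart in each setting. Macrophages per area of skin were not measured, and more cells in the skin and a higher share recovered cannot be told apart.

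Within the members, UMIs were summed per library, and a gene was called when its log2 ratio of TP to Con, with 1 UMI added in each library, was at least 1 or at most -1, which is a 2-fold difference. Of 5222 genes with at least 50 UMIs in the members of both libraries together, 287 (5.5%) were called higher in TP and 447 (8.56%) lower. With scaling by TMM, which assumes that most genes are equal, the calls were 518 higher and 174 lower, since TMM adds 0.31 to every log2 ratio and moves their median from -0.18 to 0.13. Macrophage-enriched genes had a level in members at least 2 times that in other barcodes, in the library where the members' level was higher. Of these 1391 genes, 164 (11.8%) were higher and 73 (5.25%) lower. A gene could thus enter through the library in which it was higher. Atf3 did so, at 174 CPM against 204 in other barcodes in Con and 1814 against 802 in TP. These shares are therefore a description and not an independent background. The Con sum is the small one, so that the added UMI is worth 7.56 CPM in Con and 0.699 CPM in TP and lowers the ratio of rare genes. A gene with 50 UMIs and an equal level would have 4.23 of them in Con. With a minimum of 200 UMIs, 7.32% of genes were higher and 1.59% lower. The 8.56% thus holds many genes with few Con UMIs.

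**Figure D2:**
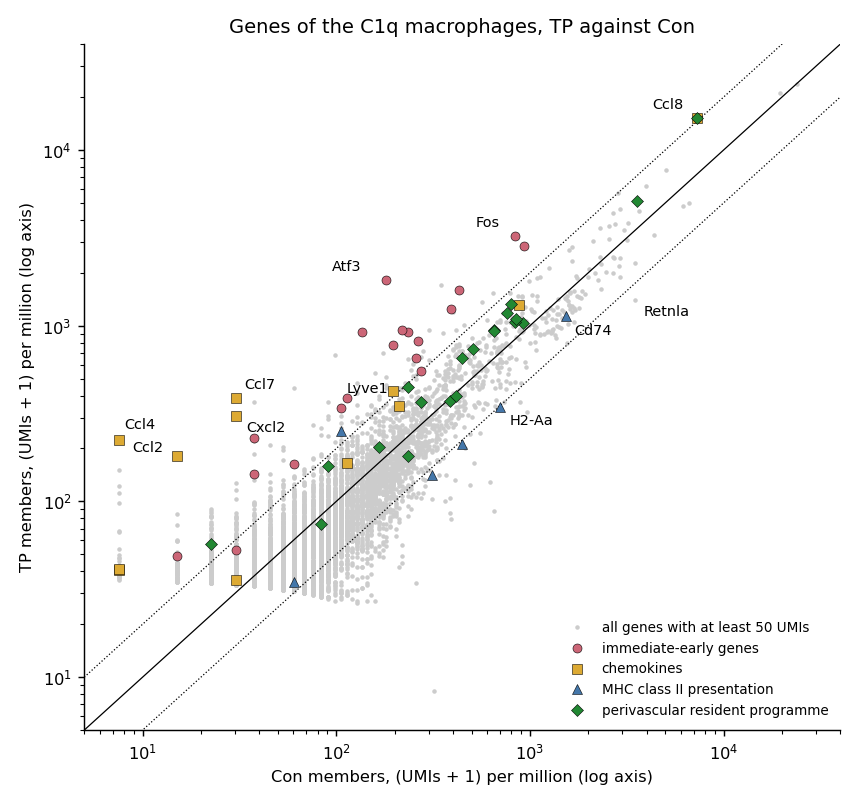
Level of each of 5222 genes in C1q macrophages of Con (x axis) and TP (y axis), as UMIs plus 1 per 1000000 on log axes; coloured shapes mark 4 gene lists, the solid line marks equal levels and the dotted lines a 2-fold difference. Immediate-early genes (circles) and several chemokines (squares) lie above the upper dotted line, perivascular genes (diamonds) lie mostly between the lines, and H2-Aa lies at the lower line.

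As a mean of both libraries, the nuclear RNA Malat1 had the highest level, at 23915 CPM in Con and 23755 in TP. The next 9 genes were Ccl8, Apoe, Ftl1, Selenop, Fth1, Lyz2, Ctsb, C1qa and Cst3. They code for a chemokine, a lipid carrier, the ferritin chains, a selenium carrier, lysozyme, a cathepsin, a C1q chain and a protease inhibitor. Apoe stood at 5043 CPM in Con and 7722 CPM in TP members, a ratio of 1.53 (1.42 to 1.66). Of the rule's own genes none was called, and their summed level was 12921 CPM in Con and 19610 in TP, a ratio of 1.52 that the rule itself can set.

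Immediate-early genes, which are transcribed within minutes of a stimulus and encode AP-1 and other short-lived factors, were the group with the most calls. Of the 19 listed genes with 50 UMIs, 18 were higher in TP, none was lower, and the median log2 ratio was 1.78. Higher calls made up 5.5% over all genes and 11.8% of macrophage-enriched genes. Their summed level went from 4657 to 17697 CPM, a ratio of 3.80 (3.51 to 4.12). Fos, a subunit of AP-1, went from 832 CPM (684 to 1002) to 3220 (3128 to 3314), a ratio of 3.87 (3.20 to 4.72), and was found in 25 of 47 Con and 248 of 268 TP members. Its partner Jun went from 922 to 2825 CPM, a ratio of 3.06 (2.56 to 3.70).

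Atf3, a stress-induced repressor of inflammatory genes, showed the largest ratio of the group. It went from 174 to 1814 CPM, a ratio of 10.4 (6.94 to 16.5), with 23 UMIs in 12 Con members and 2596 in 220 TP members. After thinning each cell to 1000 UMIs, which left 42 Con and 258 TP members, Atf3 was found in 21.4% of Con (10.3 to 36.8) and 63.6% of TP members (57.4 to 69.4). The shares were 41.7% (29.1 to 55.1) and 60.5% (51.1 to 69.3) of MHC II barcodes. They were 19.3% and 39.1% of keratin barcodes, whose Atf3 therefore differed too. Unthinned, Atf3 was found in 25.5% and 82.1% of members. Fosb rose 7.12-fold (4.43 to 12.2), Ier3 7.58-fold (2.93 to 28.0) on 4 Con UMIs, and Zfp36, whose protein degrades cytokine mRNAs, 4.44-fold (3.06 to 6.70). Klf2, a factor that holds macrophages quiescent, rose 4.08-fold (2.75 to 6.33) from 189 to 771 CPM. Fosl2, at a log2 ratio of 0.81 on 3 Con UMIs, was the 1 listed gene not called.

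The rise was spread over the cells. The summed level of the group per cell had a median of 26.2 per 10000 UMIs in Con members, with a range of 0 to 293.9, and of 170 in TP members, with a range of 6.56 to 621. The ranges overlapped, and the lower quartile of TP, 90.0, lay above the upper quartile of Con, 49.4.

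**Figure D3:**
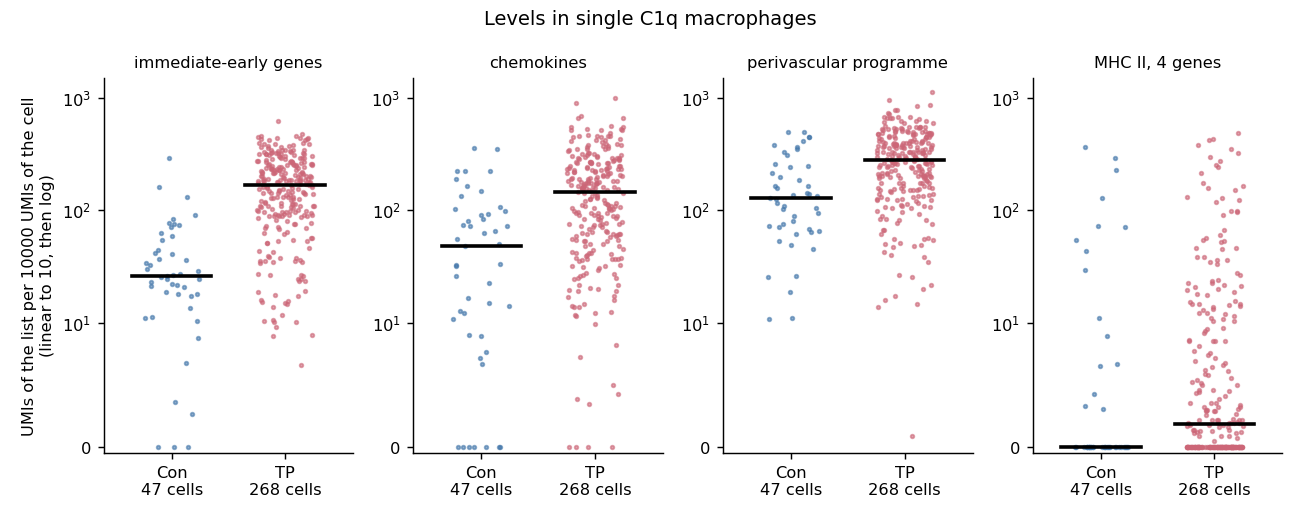
Summed level per cell, in UMIs per 10000 on an axis that is linear to 10 and then logarithmic, of immediate-early genes, chemokines, the perivascular programme and 4 MHC class II genes in the 47 Con and 268 TP members; each point is a cell, and bars are medians. Cells of 1 library are not replicates. Ccl8 is on both the chemokine and the perivascular list. In Con it held 960 of 1157 UMIs of the first and of 2513 of the second. In TP it held 21777 of 26804 and of 45110. For immediate-early genes the medians are 26.2 and 170, and for the MHC class II genes they are 0 and 1.87. The cells had medians of 2612 UMIs in Con and 4978 in TP.

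The same genes were also higher in other cells of the TP library. The ratio of the summed level was 1.53 in MHC II barcodes, 1.84 in T cell barcodes, 1.90 in keratin barcodes and 2.61 in all other kept barcodes, against 3.80 in the members. Fos rose from 666 to 2007 CPM in all other kept barcodes. In Con the list summed to 8130 CPM in MHC II barcodes, 3601 in T cell, 5402 in keratin barcodes and 4657 in members. In TP these levels were 12462, 6634, 10275 and 17697 CPM. Epidermal keratinocyte markers stood at 15917 and 20541 CPM in MHC II barcodes of Con and TP. In T cell barcodes they stood at 9513 and 16575 CPM, and in members at 5754 and 5102. How the ratio differs between the classes was not tested. The plot of list ratios sets the classes side by side.

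**Figure D4:**
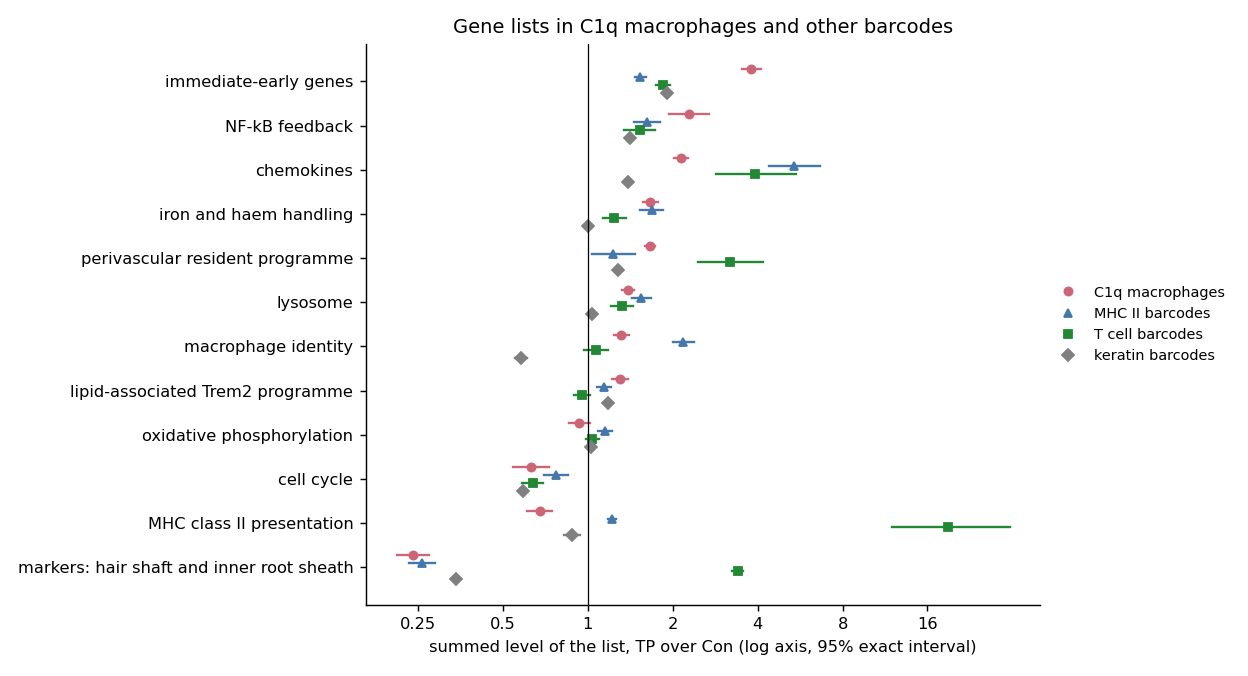
Ratio of TP to Con (log axis) of the summed level of 12 gene lists in C1q macrophages and in MHC II, T cell and keratin barcodes of the same 2 libraries, with exact 95% intervals of counting error; the vertical line marks equal levels. Immediate-early genes lie above 1 in each class, from 1.53 in MHC II barcodes to 3.80 in the members. The chemokine ratio of the members, 2.14, lies below the 5.37 of MHC II barcodes. Ccl8 is part of both the chemokine and the perivascular list.

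Genes that NF-kB, the transcription factor of inflammatory signals, induces to limit its own activity were also higher in sum, though not each of them. Of 12 listed genes with 50 UMIs, 7 were called higher, beside 5.5% over all genes and 11.8% of macrophage-enriched genes, and none lower. The log2 ratio was above 0 in 9 of the 12, with a median of 1.04 over all 12. The sum went from 1149 to 2616 CPM, a ratio of 2.28 (1.94 to 2.70), against 1.62 in MHC II barcodes, 1.53 in T cell barcodes and 1.41 in keratin barcodes. Tnfaip3, whose enzyme removes ubiquitin from the pathway's adaptors, had no UMI in Con and 215 in 74 TP members, at least 6.62-fold higher when Con is set at the 3 counts that a count of 0 allows. In MHC II barcodes it went from 27.0 to 100 CPM and in T cell barcodes from 67.4 to 165 CPM. Cd83, a surface protein of activated antigen-presenting cells, rose from 90.7 to 676 CPM, 7.45-fold (4.25 to 14.5). Nfkbiz, a nuclear co-factor, rose from 174 to 512 CPM, 2.95-fold (1.95 to 4.67), whereas the inhibitor Nfkbia, at 197 and 347 CPM, a ratio of 1.77 (1.19 to 2.73), was not called.

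The windows before Cxcl2 and Tnfaip3 are shown because both genes were among the 10 largest rises of macrophage-enriched genes and because their windows hold NF-kB motifs. They lie at chr5:90903649-90903898, plus strand, and chr10:19015411-19015660, minus strand (GRCm38). Capitals mark GGANTTTCC, the NF-kB motif, found in 1.07% of windows on either strand, and TGACTCA, the AP-1 motif, found in 4.46%.
Cxcl2: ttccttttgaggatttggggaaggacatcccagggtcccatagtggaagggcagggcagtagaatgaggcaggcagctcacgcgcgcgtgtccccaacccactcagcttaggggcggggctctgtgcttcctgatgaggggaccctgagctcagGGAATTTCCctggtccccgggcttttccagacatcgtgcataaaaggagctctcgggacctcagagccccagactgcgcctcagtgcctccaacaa
Tnfaip3: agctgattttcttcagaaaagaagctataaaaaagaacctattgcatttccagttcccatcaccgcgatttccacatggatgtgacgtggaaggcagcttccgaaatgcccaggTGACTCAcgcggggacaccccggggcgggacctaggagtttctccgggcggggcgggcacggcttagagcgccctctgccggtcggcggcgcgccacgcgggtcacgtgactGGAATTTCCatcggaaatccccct
The NF-kB match lies 96 to 88 bases before the start of Cxcl2 and 24 to 16 before that of Tnfaip3, and the AP-1 match 136 to 130 before that of Tnfaip3. Among the other largest rises, the windows of Atf3, Il4ra, Socs3 and Fosb held neither motif, nor did that of Fos or a second window of Tnfaip3. A match is a string of letters and was not tested as a binding site.

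Chemokine mRNA was at its highest level in the members, and several chemokines rose. The 21 listed chemokines summed to 8748 CPM in Con members and 18725 CPM in TP members, a ratio of 2.14 (2.02 to 2.27), beside 334 and 1790 CPM in MHC II barcodes. Of 12 with 50 UMIs, 8 were higher, beside 5.5% over all genes and 11.8% of macrophage-enriched genes, and none was lower. With the 3 that had no Con UMI set at their lower bound, 6 were higher. The median log2 ratio then went from 1.77 to 0.95. Ccl8, a ligand for monocytes and other leukocytes, made up most of the sum. It went from 7258 CPM (6806 to 7732) to 15213 (15012 to 15417), a ratio of 2.10 (1.97 to 2.24), in 37 of 47 Con and 247 of 268 TP members. In all other kept barcodes Ccl8 stood at 4.23 CPM in Con and 17.2 in TP.

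The chemokines with the largest ratios were scarce in Con. Ccl2, the main attractant of monocytes, had 1 UMI in Con and 259 in 71 TP members, a ratio of 23.9 (4.26 to 949), and its neighbour Ccl7 had 3 and 554 UMIs, a ratio of 17.1 (5.81 to 83.0). Cxcl2, an attractant of neutrophils, had 3 UMIs in 1 Con cell and 439 in 42 TP members, a ratio of 13.5 (4.60 to 65.8). Ccl4 had none in Con and 319 in 62 TP members, at least 9.82-fold higher. Ccl3, whose annotated gene overlaps that of Ccl4, and Cxcl10 had none in Con and 57 and 58 UMIs in TP, at least 1.76-fold and 1.79-fold higher. In MHC II barcodes Ccl4 went from 37.1 to 225 CPM and Cxcl2 from 10.1 to 395 CPM, so that these 2 were not particular to the members. Ccl2, Ccl7, Ccl8 and Ccl12 lie near each other on chromosome 11 and share sequence. How reads of their common stretches were counted was not examined.

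Other chemokines differed less. Ccl9 rose from 189 to 425 CPM, 2.25-fold (1.51 to 3.50). Ccl6 stood at 870 CPM in Con and 1307 in TP, Ccl24, which draws eosinophils, at 204 and 347 CPM, and Ccl12 at 106 and 165 CPM. Their ratios were 1.503, 1.70 and 1.56, and none was called.

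The induced chemokines were not found in every TP member. Of Ccl2, Ccl7, Ccl4 and Cxcl2, 119 of 268 TP members (44.4%) had no UMI, 74 had 1 of the genes, 47 had 2, 21 had 3 and 7 (2.61%) had all 4. The members with 3 or 4 of them were also deeper, with medians of 5855 and 5740 UMIs against 4077 in members with none, and the part of depth was not tested. In Con 43 of 47 members had none of the genes and 4 had 1, with 7 UMIs in all.

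Mediators of inflammation were rare. The 14 listed genes summed to 75.6 CPM in Con and 205 in TP members, 2.71-fold (1.45 to 5.71), from 10 and 293 UMIs. Of 3 with 50 UMIs, 2 were higher, beside 5.5% over all genes and 11.8% of macrophage-enriched genes, and none was lower. The median log2 ratio was 1.97. With Tnfaip2, which had no Con UMI, at its bound 1 was higher and the median was 0.62. Tnfsf9, a costimulator of T cells, had 1 UMI in Con and 84 in 39 TP members, a ratio of 7.76 (1.36 to 310). Il1b had 4 UMIs in 1 Con member and 45 in 8 TP members, at 30.2 and 31.4 CPM, a ratio of 1.04 (0.379 to 3.98). Tnf had none in Con and 6 in TP, and Il6 had none and 5. Il10, a suppressor of inflammation, had 1 UMI in Con and 30 in 12 TP members. At this depth a difference in Tnf, Il6 or Il10 was not detectable.

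Of 21 receptors of cytokines and growth factors with 50 UMIs, 2 were higher, beside 5.5% over all genes and 11.8% of macrophage-enriched genes. Of the 21, 1 was lower, and the median log2 ratio was 0.23. Il4ra, the receptor chain for the interleukins that drive repair macrophages, rose from 30.2 to 367 CPM, 12.1-fold (4.71 to 44.7) on 4 Con UMIs, and was found in 4 Con and 135 TP members. After thinning it was found in 2.38% of Con (0.0603 to 12.6) and 23.6% of TP members (18.6 to 29.3), beside 0.546% and 0.885% of keratin barcodes; unthinned the shares were 8.51% and 50.4%. Socs3, a feedback inhibitor of cytokine receptors, rose from 52.9 to 444 CPM, 8.38-fold (4.04 to 20.9), and from 6.74 to 81.1 CPM in MHC II barcodes. Irf1, a factor of the interferon response, rose from 83.2 to 365 CPM, 4.39-fold (2.44 to 8.86). Of 19 listed interferon-stimulated genes with 50 UMIs, 3 were higher, beside 11.8% of macrophage-enriched genes, none was lower and the median log2 ratio was 0.19, and with Rsad2, which had no Con UMI, at its bound 2 were higher.

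**Figure D5:**
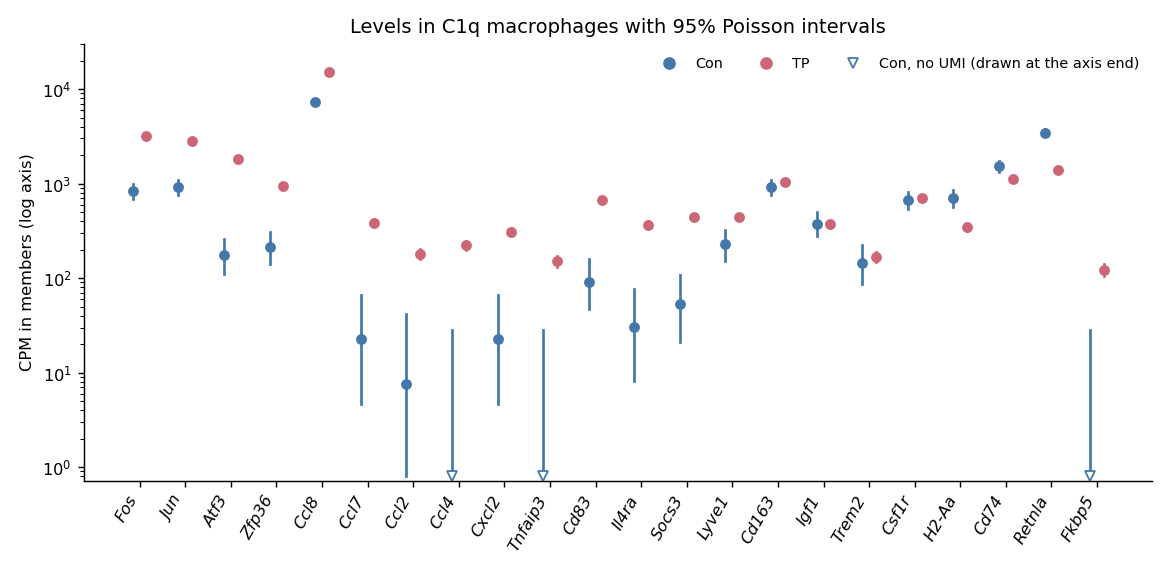
Level (CPM, log axis) of named genes in C1q macrophages of Con and TP, with exact 95% Poisson intervals of counting error; an open triangle at the axis end marks a gene with no UMI in Con, with the line of its interval above it, and the Con interval of Ccl2 runs below the axis. Atf3, Ccl7, Ccl2, Ccl4, Cxcl2, Il4ra and Socs3 have intervals that do not overlap, while those of Csf1r, Igf1, Cd163 and Trem2 overlap.

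Genes of the resident, perivascular programme were found in both libraries and mostly stood slightly higher in TP. The rule chose members by C1q, Mrc1, F13a1, Pf4 and Folr2, markers of such resident cells. How far it sets the level of this programme was not tested. Of 20 listed genes, all with 50 UMIs, 2 were called higher, beside 11.8% of macrophage-enriched genes, and none lower. They were Ccl8 and, on 2 Con UMIs, Vsig4. The log2 ratio was above 0 in 16 of the 20. The median of the 20 was 0.52, beside 0.16 over macrophage-enriched genes and 0.52 over the 7 rule genes. Lyve1, the hyaluronan receptor of vessel-associated macrophages, stood at 227 CPM in Con (153 to 324) and 444 in TP (410 to 480). The ratio of 1.96 (1.36 to 2.93) misses the 2-fold limit. It passed the limit after thinning, at a log2 ratio of 2.02, with TMM, at 1.24, and without called doublets, at 1.14. After thinning Lyve1 was found in 9.52% of Con and 32.6% of TP members, beside 0 of 2379 and 0.0708% of keratin barcodes; unthinned the shares were 27.7% and 60.4%. Cd163, the receptor for haemoglobin, stood at 915 and 1030 CPM, a ratio of 1.13 (0.935 to 1.37). Cd209d and Cd209f, lectins of this subset, had ratios of 1.57 and 1.46. Igf1, a growth factor that acts on follicles, stood at 378 and 373 CPM, a ratio of 0.987 (0.738 to 1.35).

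Identity genes summed to a ratio of 1.31 (1.24 to 1.40), beside 2.18 (2.00 to 2.38) in MHC II barcodes and 1.07 in T cell barcodes. All 15 with 50 UMIs had a log2 ratio above 0 in the members. Their median was 0.37, beside a median of 0.16 over macrophage-enriched genes. Of these 1 was called higher, beside 11.8% of macrophage-enriched genes, Cd14, the co-receptor for bacterial lipopolysaccharide, which rose from 75.6 to 239 CPM, 3.16-fold (1.70 to 6.65). Csf1r had a ratio of 1.06 (0.848 to 1.33), Adgre1, which encodes F4/80, 1.16 (0.772 to 1.82), and Cd68, a lysosomal glycoprotein, 1.31 (1.02 to 1.70). Of 12 macrophage transcription factors with 50 UMIs, 3 were called higher, beside 5.5% over all genes and 11.8% of macrophage-enriched genes, and none lower. All 12 had a log2 ratio above 0, with a median of 0.48. Their sum had a ratio of 1.255 (1.165 to 1.354), beside 1.52 in MHC II barcodes. Maf and Zeb2 were level, with ratios of 1.08 and 1.05. Cebpb, a factor of activated macrophages, stood at 144 and 303 CPM, a log2 ratio of 1.00 that was no call, at 0.67, when every cell weighed the same.

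Genes of digestion were higher in sum, and those of uptake less so. The list for uptake of dead cells and scavenging had a ratio of 1.15 (1.04 to 1.26) and a median log2 ratio of 0.13. Of its 12 genes with 50 UMIs, 7 were above 0. None was called higher and 1 lower, close to the 5.5% and 8.56% over all genes. Of 22 lysosomal genes none was called, beside 5.5% higher and 8.56% lower over all genes. Their sum went from 13314 to 18466 CPM, a ratio of 1.39 (1.32 to 1.46). The protease Ctsb had a ratio of 1.58 (1.43 to 1.76) and Ctsd 1.06 (0.863 to 1.32). Of 5 Fc receptor genes with 50 UMIs, 1 was higher, beside 11.8% of macrophage-enriched genes. It was the inhibitory receptor Fcgr2b, which rose from 295 to 639 CPM, 2.17-fold (1.57 to 3.07). The activating receptor Fcgr3 had a ratio of 1.88 (1.28 to 2.88) and was not called.

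Iron handling genes were higher in sum, from 8748 to 14554 CPM, a ratio of 1.66 (1.57 to 1.77), and 2 of 10 with 50 UMIs were called, beside 11.8% of macrophage-enriched genes. Hmox1, which breaks down haem, rose from 219 to 470 CPM, 2.14-fold (1.48 to 3.23) on the summed counts. Its log2 ratio was no call at 0.83 when every cell weighed the same and at 0.27 when cells were thinned to 1000 UMIs. Steap4, a metal reductase, had 3 UMIs in 1 Con cell and 165 in 48 TP members, a ratio of 5.08 (1.71 to 24.9). The ferritin heavy chain Fth1 stood at 2835 and 5669 CPM, a ratio of 2.00 (1.80 to 2.22) that falls just short of a call, at a log2 ratio of 0.996. The light chain Ftl1 had a ratio of 1.59 (1.45 to 1.74).

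MHC class II genes, which present antigen to T cells, had a median log2 ratio of -0.91. Of 6 listed genes with 50 UMIs, H2-Aa, H2-Ab1 and H2-Eb1 were called lower, beside 5.25% lower among macrophage-enriched genes, and Cd86, a costimulator, was called higher with a ratio of 2.56 (1.48 to 4.85). H2-Aa fell from 696 CPM (561 to 853) to 345 (315 to 377), a ratio of 0.496 (0.396 to 0.627), H2-Ab1 from 439 to 210 CPM and H2-Eb1 from 302 to 140 CPM, while Cd74, the invariant chain, stood at 1520 and 1127 CPM, a ratio of 0.742 (0.640 to 0.863). The fall rested on few Con cells. H2-Aa had UMIs in 9 of 47 Con and 76 of 268 TP members, 1 Con cell held 48.9% of its Con UMIs, and without the top cell of each library the ratio was 0.866. Without the Con and the TP cell that held most of each gene, a check chosen after the data were seen, the ratio of H2-Ab1 was 0.570 and that of H2-Eb1 0.647, and none of the 3 was called. After thinning, H2-Aa was found in 19.0% of Con (8.60 to 34.1) and 15.1% of TP members (11.0 to 20.1), beside 0.378% and 0.637% of keratin barcodes; unthinned the order was the other way, 19.1% and 28.4%.

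Members in the upper range of MHC class II made up a like share of both libraries. H2-Aa, H2-Ab1, H2-Eb1 and Cd74 together reached 20 per 10000 UMIs in 9 of 47 Con members, 19.1% (9.15 to 33.3), and 47 of 268 TP members, 17.5% (13.2 to 22.6). This is a range cut from a score and not a cell type, and 0 Con and 14 TP members lay between 15 and 25 per 10000. Below it, 31 of 38 Con and 112 of 221 TP members had no UMI of these genes. These members had medians of 2550 UMIs per cell in Con and 5174 in TP, and the part of depth was not tested. In the range, Lyve1 had a UMI in 0 of 9 Con members, an interval of 0 to 162 CPM that covers only counting error in few cells. Con members outside it stood at 274 CPM (185 to 391). In TP members Lyve1 stood at 318 CPM in the range and 465 CPM outside it. Il1b stood at 199 CPM in TP members of the range and 4.06 CPM outside, Adgre1 at 398 and 190 CPM, and Cd209f at 562 and 996 CPM.

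Retnla, a secreted protein of macrophages exposed to interleukin-4, had the largest fall among macrophage-enriched genes with at least 200 UMIs. It went from 3470 CPM (3160 to 3803) to 1394 (1334 to 1457), a ratio of 0.402 (0.363 to 0.446). A single Con member held 265 of its 459 Con UMIs, 57.7%, and without the top cell of each library the ratio was 0.819 and no longer a call. The same cell, of 4285 UMIs, held all 41 Con UMIs of Lyz1, a second lysozyme gene, 16 of the 40 of H2-Eb1 and 26.9% of those of Cd74, beside 15 UMIs of C1qa and 6 of Mrc1. Retnla had UMIs in 14 of 47 Con and 92 of 268 TP members. After thinning the shares were 28.6% (15.7 to 44.6) and 23.3% (18.2 to 28.9), beside 0.126% and 0.283% of keratin barcodes; unthinned they were 29.8% and 34.3%. In MHC II barcodes Retnla had no UMI in Con and 757 in TP, at 723 CPM.

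The remaining falls among macrophage-enriched genes with at least 200 UMIs lay near the limit, and with the TMM scaling neither they nor the 3 MHC class II genes were called. Phactr2, a regulator of phosphatase and actin, had a ratio of 0.435 (0.303 to 0.638), Mitf, a factor of lysosome genes, 0.498 (0.381 to 0.661), and Ddx60, a helicase of the antiviral response, 0.503 (0.404 to 0.633), which is a call only with the added UMI. Ddx60 was found in 34 of 47 Con and 178 of 268 TP members, and after thinning in 54.8% (38.7 to 70.1) and 33.0% (27.2 to 39.0), beside 0.336% and 0.283% of keratin barcodes. Mir99ahg, Cyth4 and Hdac9 had ratios of 0.537, 0.573 and 0.594 and were not called.

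Trem2, a lipid receptor of macrophages known to hold hair stem cells in rest, was level. It stood at 144 CPM in Con (86.5 to 224) and 168 in TP (148 to 191). The ratio was 1.17 (0.734 to 1.98), and Trem2 was found in 14.3% of Con and 15.5% of TP members after thinning, beside 0.0841% and 0.0354% of keratin barcodes; unthinned the shares were 27.7% and 44.8%. Of 9 genes of its lipid-associated programme with 50 UMIs none was higher and 1 was lower, beside 8.56% over all genes. The lower gene was Fabp5, a fatty acid carrier, which went from 953 to 321 CPM, a ratio of 0.337 (0.276 to 0.414). Fabp5 stood at 1949 and 1360 CPM in all other kept barcodes, above its level in members. Cxcr4, a chemokine receptor, had 2 UMIs in 1 Con member and 74 in 55 TP members, a ratio of 3.42 (0.914 to 28.8), which is called but has an interval that includes 1. After thinning a UMI was found in 0 of 42 Con members, for which 3 counts would be a share of members with a UMI of 7.14%, and in 4.65% of TP members (2.43 to 7.98). Ccr2, the receptor of recruited monocytes, was rare, with 12 UMIs in 2 Con members, 7 of them in 1 cell, and 10 UMIs in 7 TP members, which is 90.7 and 6.99 CPM.

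Receptors for growth factors differed by less than 2-fold. Fgfr1 stood at 181 and 293 CPM, a ratio of 1.61 (1.07 to 2.55), and Egfr at 204 and 337 CPM, a ratio of 1.65 (1.12 to 2.53), although keratinocytes carry Egfr too, at 550 and 404 CPM in all other barcodes. Tgfbr1 and Tgfbr2, the receptors of TGF-beta, had ratios of 1.05 (0.457 to 2.95) and 1.25 (0.925 to 1.72). Tgfbi, a matrix protein induced by TGF-beta, had a ratio of 1.39 (1.02 to 1.93), and the integrin Itgam 1.26 (0.814 to 2.03).

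Of 9 steroid receptor and response genes with 50 UMIs 3 were higher, beside 5.5% over all genes, and 1 was lower, with a median log2 ratio of -0.07. Fkbp5, a chaperone induced by steroid receptors, had no UMI in Con and 175 in 108 TP members, at least 5.39-fold higher. In MHC II barcodes Fkbp5 stood at 43.8 and 43.0 CPM, and in all other kept barcodes it went from 30.1 to 50.2 CPM. Zbtb16 had 2 and 104 UMIs, a ratio of 4.81 (1.297 to 40.2), and Tsc22d3, also known as GILZ, stood at 159 and 323 CPM, a ratio of 2.04 (1.32 to 3.32) that was not called. The glucocorticoid receptor Nr3c1 stood at 401 and 274 CPM, a ratio of 0.683 (0.512 to 0.929).

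Cell cycle genes were lower. Of 9 with 50 UMIs 4 were called lower and none higher, beside 8.56% lower over all genes, and their sum went from 1618 to 1016 CPM, a ratio of 0.628 (0.544 to 0.728). Mki67, a protein of dividing cells, fell from 166 to 69.9 CPM, a ratio of 0.420 (0.263 to 0.700), and Top2a from 166 to 79.6 CPM. Without the top cell of each library the ratio of Mki67 was 0.528 and no longer a call. Both genes were higher outside the members than in them, at 519 and 226 CPM for Mki67 in other kept barcodes, and were lower there in TP too. Their part as free RNA was not tested.

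Energy genes were level. None of 23 oxidative phosphorylation genes was called, beside 5.5% higher and 8.56% lower over all genes. Their median log2 ratio was -0.17, which turns positive with the TMM scaling, and the ratio of the sums was 0.932 (0.857 to 1.01). Of 12 glycolysis genes 1 was higher, close to the 5.5% over all genes, Pfkfb3, a regulator of the pathway's flux, at 37.8 and 143 CPM, a ratio of 3.79 (1.597 to 11.8) on 5 Con UMIs. Of 17 heat shock chaperones 3 were higher, beside 5.5% over all genes, among them Hspa5 of the endoplasmic reticulum, with a ratio of 2.27 (1.75 to 2.998).

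mRNA of other skin cells was found in the members and differed between the libraries. Hair shaft and inner root sheath markers summed to 2412 CPM in Con members and 576 in TP members, which is 0.239 times the Con level (0.210 to 0.273), and 7 of 8 with 50 UMIs were lower, beside 8.56% over all genes. The ratio was 0.258 in MHC II barcodes, 0.340 in keratin barcodes and 3.40 in T cell barcodes. Krt71 and Krt25, keratins of the inner root sheath, had the largest falls among genes of at least 200 UMIs not enriched in macrophages, with ratios of 0.136 and 0.210, followed by Robo1, Mt4 and Maml3. Melanocyte markers went from 249 to 30.04 CPM, a ratio of 0.120. Fibroblast markers went the other way, from 272 to 661 CPM, a ratio of 2.43 (1.74 to 3.49), with 3 of 4 called, beside 5.5% over all genes, and in all other kept barcodes from 733 to 4206 CPM. Their median log2 ratio in the members fell to -0.04 after thinning and -0.0052 without members above 2% foreign markers, and 1 TP cell held 51.3% of the Dcn UMIs. Sparc and Col3a1, matrix genes of fibroblasts, were among the largest rises of such genes, 4.30-fold and 3.76-fold, and 1 TP cell held 32.8% of the Col3a1 UMIs. Markers of epidermal keratinocytes stood at 5754 and 5102 CPM, a ratio of 0.887, while they went from 9516 to 24932 CPM in all other kept barcodes. Those of dendritic and Langerhans cells stood at 144 and 337 CPM, with 9 and 387 UMIs from Cd209a, those of B cells and plasma cells at 227 and 235 CPM, and those of T cells, endothelial cells, neutrophils, Schwann cells and red cells at 47.5 CPM or less in each library.

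A share of foreign markers per member was taken without those of dendritic and Langerhans, B and plasma, dermal papilla and red cells. It had a median of 0.640% of UMIs in Con and 0.397% in TP, and 2 Con and 8 TP members were above 2%. Without those members 276 genes were higher and 450 lower, of which 223 and 321 were also called over all members. Doublets, droplets with more than 1 cell, were not removed, and a score against artificial doublets marked 0 of 47 Con and 44 of 268 TP members. By its setting the score marked the top 7.5% of barcodes in each library. All barcodes it marked, members or not, had a median of 4920 UMIs in Con and 13183 in TP. The marked TP members themselves ran from 644 to 24192 UMIs, and most lay below 4978, the median of all TP members. Without the marked members 290 genes were higher and 391 lower.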

How the data were processed

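Single cells of dorsal skin were sequenced with the GEM-X 3′ chemistry of 10x Genomics, 1 library per group. The authors aligned the reads to the mouse reference mm10 with Cell Ranger 8.0.1 and deposited, per library, a filtered matrix of raw UMI counts per gene and barcode, with no normalization; whether introns were counted is not given in the sources used here. The reference is C57BL/6J and the mice were C3H/HeN, which touches polymorphic genes such as those of MHC class II in both libraries alike.

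From these counts, barcodes outside 200 to 8000 genes or above 10% mitochondrial UMIs were left out, leaving 62289 of 71640, and members were taken by the rule in the text. The members and the gene lists were chosen with earlier results of these data known. UMIs were summed over members and expressed per 1000000 (CPM). Since 3′ counting gives 1 UMI per molecule, CPM were not scaled by length. Genes needed 50 UMIs in both libraries together. A call was a log2 ratio of at least 1 or at most -1 with 1 UMI added per library. With 1 library a group no test was made. Intervals were exact: Clopper-Pearson for shares, Poisson for levels and conditional binomial for ratios, all at 95%. For a gene with no UMI, 3 counts were taken as the limit. PCR duplicates are removed by UMIs, and intervals still cover counting error only. Shares of cells with a UMI were also computed after thinning each cell to 1000 UMIs, for keratin barcodes in 3000 drawn per library.

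Named genes were those of the lists on which a result turned, at most 4 a list by that rule, the 10 largest rises and falls among macrophage-enriched genes with 200 UMIs, the 5 largest among other genes, the 10 of highest level, and genes of the study's macrophage text. Lyz1, Tnf, Il6, Il10, markers at 0 and further chemokines and perivascular genes beyond 4 of their list were named after their values were seen. MHC II barcodes were kept, were no members, had at least 20 per 10000 UMIs of H2-Aa, H2-Ab1, H2-Eb1 and Cd74 with at least 3 of the 4 detected, and no UMI of Cd3e, Cd3g or Trdc. T cell barcodes had at least 2 of Cd3d, Cd3e, Cd3g, Trac and Trdc. Keratin barcodes had keratins at 100 or more per 10000 UMIs and no UMI of Ptprc, Tyrobp or Cd3e. Doublets were scored by the share of artificial doublets (25% of barcodes) among nearest neighbours in 30 principal components of 2000 variable genes, and the top 7.5% of each library were marked.

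Alternatives changed the rule, the filters, the denominator, the depth, the scaling (TMM of edgeR 4.0.16 in R 4.3.3), the pseudocount, the weighting of cells and the cells included. Leaving out the top cell of a gene or list, and members rich in MHC class II, were added after the data were seen. The scripts (Python 3.11.15, numpy 2.4.6, scipy 1.17.1, pandas 2.3.3) were tested on simulated data. Positions and promoter windows were from RefSeq on GRCm38.p6, in which 9 of 14 genes looked for had a window, and C1qa had none. Clec7a, Krt85 and Mx1 were not analysed here.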

Additional observations from a re-analysis of the deposited data

Results flagged for a closer look

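Members were set beside MHC II and T cell barcodes of the same 2 libraries for the gene lists with at least 3 genes of 50 UMIs, leaving out the rule's genes, cell type markers and MHC class II genes, which define classes. In 3 of these lists the ratio lay on opposite sides of 1 with both intervals clear of 1; the differences were not tested. Anti-inflammatory and repair mediators had a ratio of TP to Con of 0.749 (0.690 to 0.815) in the members, 4.51 (3.62 to 5.68) in MHC II barcodes and 1.44 in T cell barcodes. Retnla made up 3470 of 4801 CPM of that sum in Con members and 1394 of 3596 CPM in TP members, with 265 of its 459 Con UMIs in 1 cell. The median member held more of the list in TP, 26.0 per 10000 UMIs, than in Con, 15.3, and the median log2 ratio of its genes was 0.03, neither in the direction of the sum. In MHC II barcodes Retnla had no UMI in Con and stood at 723 CPM in TP. Matrix remodelling genes had a ratio of 1.31 in the members and 0.725 in T cell barcodes. Cholesterol and lipid handling genes had a ratio of 1.31 in the members and 0.770 in T cell barcodes. Outside this comparison, receptors for chemokines and complement fragments had ratios of 0.681 in the members and 1.39 in MHC II barcodes. Only 2 of them had 50 UMIs. Macrophage identity genes had ratios of 1.31 in the members and 0.580 in keratin barcodes, and cytokine and growth factor receptors 1.32 and 0.888. The identity list holds Ptprc and Tyrobp, which keratin barcodes lack by definition, so that part of this contrast is set by the class.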

How the results depend on the processing

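No paired analysis was possible because each group was 1 library and the labels carry no replicate numbers. The ratio of shares kept its size in 10 of 12 alternatives and moved against the Ptprc denominator (7.10) and among barcodes with few keratins (18.5). Counts of genes called higher and lower were 518 and 174 with TMM, 65 and 1129 with 5 UMIs added, 129 and 30 after thinning, 470 and 1358 with a minimum of 20 UMIs, 106 and 23 with 200, and 470 and 6787 with none; the other 6 alternatives stayed within 1.5 times in both directions. The cause of these moves was not tested, other than that the minimum and the thinning change how many genes are counted. Among medians of log2 ratios, MHC class II moved to 1.00 without members rich in MHC class II mRNA, a filter on the same genes that left 1, 1 and 0 Con UMIs of H2-Aa, H2-Ab1 and H2-Eb1 and so says nothing of their direction, chemokines to 0.72 and NF-kB feedback to 0.30 with 5 UMIs added, and fibroblast markers to -0.04 after thinning and -0.0052 without members above 2% foreign markers. Named genes that were called and changed sign were Dcn (-0.23 thinned, -0.0788 without foreign-marker members, -0.44 without the deepest members), Krt14 (-0.18 without the deepest), Retnla (0.0406 without the deepest and 0.0414 without MHC II-rich members), H2-Aa (1.03), H2-Ab1 (0.46) and H2-Eb1 (0.32) without MHC II-rich members, and Isg15 (-0.24 and -1.03) and Per1 (-0.0668 and -0.81) with 5 UMIs added and after thinning. Cd74, which was not called, went from -0.44 to 1.81 without MHC II-rich members. Over all alternatives the median of immediate-early genes stayed between 1.56 and 2.09 and that of the perivascular programme between 0.37 and 0.84. The 132262 UMIs of the 47 Con members limit every value: the 3 counts that a 0 allows are 22.7 CPM there.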
